A study of Mus musculus with 4 samples.

Results

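The 10 genes described here encode receptors, bridging molecules and an intracellular adaptor through which phagocytes take up apoptotic cells: the receptor kinases Mertk, Axl and Tyro3, the bridging molecules Gas6, Pros1 and Mfge8, the phosphatidylserine receptors Timd4 and Stab2, the endocytic receptor Lrp1 and the engulfment adaptor Elmo1. They were a fixed list of symbols, matched by Entrez identifier to the deposited tables, and all 10 were found among the 16739 genes with a value in any of the 4 libraries. RNA was sequenced from tumor-associated macrophages, sorted as CD45+ CD11b+ F4/80+ cells from subcutaneous B16-F10 melanomas of C57BL/6 mice, 16 days after injection of the tumor cells into mice aged 6 to 8 weeks. The 2 WT libraries came from mice labelled wild type, which were littermate controls by the study's methods. The 2 libraries of the other group carry the genotype Trim24-/- in the labels and came from mice with a conditional loss of Trim24 in myeloid cells, made by crossing Trim24 flox/flox mice with LysM-Cre mice. LysM-Cre acts in the myeloid lineage, so that other cells of the tumor keep the gene, and the sources used here do not say which of these alleles the WT littermates carried or whether a library holds 1 mouse or several.

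Dying cells expose phosphatidylserine on their outer membrane. Macrophages bind it directly, through receptors such as Timd4 and Stab2, or through soluble bridging molecules that hold the lipid with an end of the protein and a receptor with the other. Gas6 and Pros1 are vitamin K-dependent ligands of the receptor kinases, and Mfge8 links phosphatidylserine to integrins. Internalization then runs through Rac activation by Elmo and Dock proteins. In tumors this uptake is known for its link to an immunosuppressive macrophage state.

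The 4 libraries held 4476122 to 5172407 expected counts, at which 3 counts correspond to 0.606 to 0.639 CPM (expected counts scaled to a common library size by edgeR), a floor that covers counting error only. Trim24 itself measured 5.86 and 2.08 CPM in WT against 3.41 and 0.411 CPM in the other group. These values overlapped, from expected counts of 28.84 and 10.16 against 16.11 and 2.0. A count over the whole gene does not show whether a part of it was deleted. The mutant group is therefore called the libraries labelled Trim24-deficient throughout. The paper reports lower Stat6 acetylation in tumor-associated macrophages from such mice. The X-linked Xist RNA had 10.9 and 6.46 CPM in the WT libraries against 437 and 256 CPM in the labelled Trim24-deficient libraries, and the Y-linked Ddx3y had 73.7 and 102 CPM against 0.426 and 0.411 CPM, so genotype and sex cannot be told apart in any difference below, although the study's methods describe the mice as matched for sex. All 10 genes lie on autosomes. The macrophage markers Ptprc (CD45), Itgam (CD11b), Adgre1 (F4/80), Cd68, Csf1r and Fcgr1 summed to 5757 to 5873 CPM in the WT libraries and to 6909 to 7001 CPM in the labelled Trim24-deficient libraries. Markers of melanoma cells, led by Tyr, summed to 611 to 813 CPM over all libraries, whereas those of fibroblasts, led by Col1a1 and without a value for Lum, summed to 3.23 to 6.58 CPM. B cell markers summed to 46.3 to 55.4 CPM, nearly all from Cd79b and without a value for Pax5, and dendritic cell markers, led by Xcr1, to 37.2 to 79.4 CPM. Endothelial markers, led by Pecam1 and without values for Tek and Cldn5, summed to 20.0 to 23.6 CPM in the WT libraries and to 32.3 to 45.6 CPM in the labelled Trim24-deficient libraries. Most of this difference came from Pecam1, at 16.0 and 5.63 CPM in WT against 36.0 and 22.0 CPM. Of the other endothelial markers, Vwf had a higher mean with the Trim24-deficient label, whereas Cdh5, Kdr and Tie1 had lower means.

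Of the 10 genes, 8 passed the filter on low counts and were tested, and none of the 8 was called at a false discovery rate below 0.05 with a fold change above 1.5 (quasi-likelihood F test of edgeR, Benjamini-Hochberg adjusted over 11302 genes). Of all genes tested, 0.372% were called. At an unadjusted p under 0.05 the count was also 0 of 8, against 12.2% of all genes, and DESeq2, with 1.38% of genes called, and limma, with 0.207% and 0.18% at its pseudocounts, called 0 as well. The count stayed at 0 with library totals or upper-quartile scaling (0.265% of genes called), without the filter (0.371%) and with at least 10 counts in every library (0.334%). It was 1 (Gas6) with the replicate number as a block, where 5.61% of genes were called. Without WT replicate 1 (0.563%), WT replicate 2 (0.215%) or the library labelled Trim24-deficient replicate 1 (3.46%) it was 0, and without replicate 2 of that label (5.54%) it was 2 (Gas6 and Mfge8). The smallest adjusted p of the 8 was 0.43, and their median log2 fold change was -0.16, beside -0.01 over all genes tested. The WT and labelled Trim24-deficient libraries did not overlap in 4 of the 8, which were Gas6, Lrp1 and Elmo1 (lower) and Pros1 (higher). Among all genes tested 44.5% did not overlap, so this share is near the background. With 2 libraries against 2, such a gene has p = 0.333 in the exact two-sided permutation test, which is the smallest p this design allows. The adjusted p-values draw on a spread moderated across all genes, and they measure only the spread between these libraries.

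**Figure D1:**
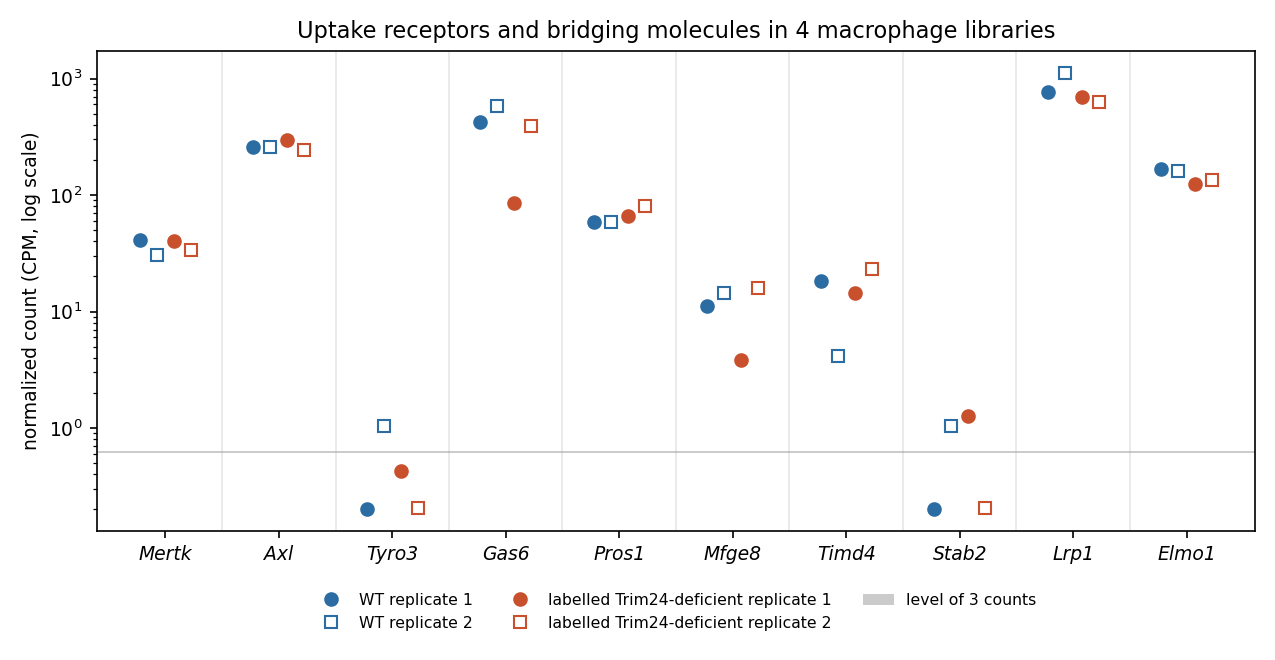
Normalized counts (CPM, log scale) of the 10 genes in each library, WT in blue and labelled Trim24-deficient in red, filled circles for replicate 1 and open squares for replicate 2; the grey line marks the level of 3 counts. Gas6 and Mfge8 were lowest in the library labelled Trim24-deficient replicate 1, at 85.8 and 3.83 CPM, and Tyro3 and Stab2 lay near the level of 3 counts in every library.

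The receptor kinases were dominated by Axl. Axl (Entrez gene 26362), a receptor of Gas6 that is induced in inflamed tissue, lies on the minus strand of GRCm38 chromosome 7 from 25756500 to 25788924, with 20 exons (counted, as for the other genes, in the longest transcript of the GENCODE basic set). It measured 258 and 258 CPM in WT against 298 and 242 CPM in the labelled Trim24-deficient libraries. The values of the groups overlapped, with the WT libraries between those of the other group. The log2 fold change was 0.06 (SE 0.20, 95% interval -0.38 to 0.51, edgeR adjusted p = 0.926).

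Mertk (Entrez gene 17289), the receptor through which many resident macrophages clear apoptotic cells, lies on the plus strand of chromosome 2 from 128698915 to 128803162 with 19 exons. It measured 41.0 and 30.4 CPM in WT against 40.0 and 33.5 CPM in the labelled Trim24-deficient libraries. Here too the groups overlapped, and the log2 fold change was 0.04 (SE 0.23, 95% interval -0.47 to 0.55, edgeR adjusted p = 0.961). The intervals of Axl and Mertk leave out differences of about 1.5-fold or more in either direction, while their signs are not fixed: with library totals in place of TMM, which moved the median over all genes to -0.154, the changes were -0.08 for Axl and -0.10 for Mertk.

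Tyro3 (Entrez gene 22174), known mainly from the nervous system, lies on the plus strand of chromosome 2 from 119797740 to 119818104. It had expected counts of 1 and 5 in the WT libraries and of 2 and 1 in the labelled Trim24-deficient libraries, at or near the floor of 3 counts, and it did not pass the filter on low counts. No fold change is given for it.

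Per length (FPKM), Axl made up 81.8% and 85.6% of the summed level of the receptor kinases in the WT libraries and 83.9% and 83.5% in the labelled Trim24-deficient libraries. The share of Mertk was 18.2% and 14.0% against 15.9% and 16.4%, and that of Tyro3 stayed at or below 0.386%. The mean share of Axl was 83.7% ± 2.73 in the WT libraries and 83.7% ± 0.307 with the Trim24-deficient label (SD over n = 2 each; exact two-sided permutation test, p = 1.0). The ratio of Axl to Mertk in FPKM was 4.5 and 6.12 in the WT libraries and 5.28 and 5.09 in the labelled Trim24-deficient libraries. Within these libraries the balance of the receptor kinases thus differed by less than the spread between the WT libraries.

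**Figure D2:**
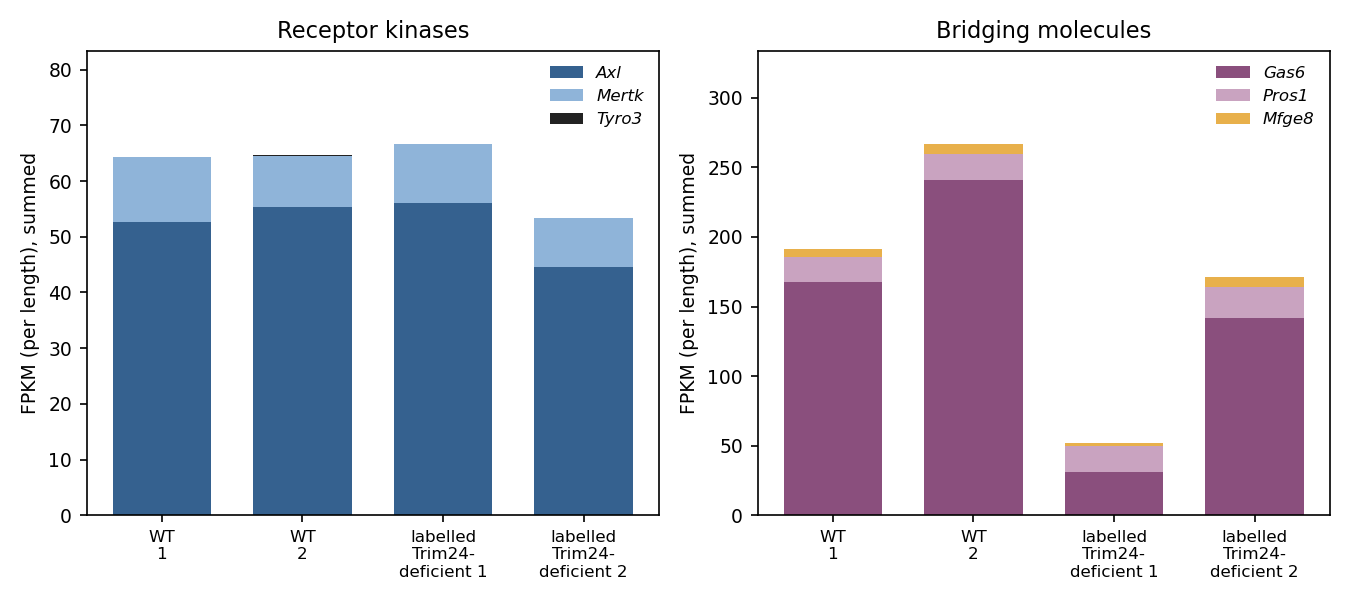
Summed FPKM (per length) of the receptor kinases (left) and of the bridging molecules (right) in each library, stacked by gene from 0. Axl formed 81.8% to 85.6% of the receptor kinases in each library, whereas Gas6 stood at 31.38 FPKM in the library labelled Trim24-deficient replicate 1 and at 141.56 to 240.58 FPKM in the other libraries.

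Among the bridging molecules, Gas6 had the widest gap between libraries. Gas6 (Entrez gene 14456), the ligand of all receptor kinases of this family, lies on the minus strand of chromosome 8 from 13465374 to 13494535 with 15 exons. It measured 426 and 586 CPM in WT against 85.8 and 393 CPM in the labelled Trim24-deficient libraries, from expected counts of 2112, 2811, 403 and 1913. The group means were 506 ± 113 and 239 ± 217 CPM (SD, n = 2 each), and the gap between the means was smaller than the gap within the labelled Trim24-deficient group. The log2 fold change was -1.08 (SE 0.53, 95% interval -2.28 to 0.12, edgeR adjusted p = 0.444). Its size depended on which library of that label was kept. Without the library labelled Trim24-deficient replicate 1 the log2 fold change was -0.36 (edgeR adjusted p = 0.459), and without replicate 2 of that label it was -2.56 (edgeR adjusted p = 2.19e-07), with the lone library taken to vary like those of the other group. An exon of Tmem255b on the opposite strand overlaps Gas6, and Tmem255b had no value of its own in any library.

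The gap between the 2 libraries labelled Trim24-deficient was large for Gas6. On the log2 CPM scale, replicate 1 minus replicate 2 was -2.19 in that group, and 0.681% of all genes tested had as large a gap in either direction. In the WT group the same difference was -0.46, and 21.9% of genes had as large a gap. Markers of other cells also differed between these libraries. The 3 monocyte markers used here (Ly6c2, Ccr2 and Plac8) summed to 490.0 and 607 CPM in the WT libraries and to 1527 and 961 CPM in the labelled Trim24-deficient libraries, replicates 1 and 2. All 3 were higher in the latter without overlap, beside 21.4% of all genes tested. None was called in the edgeR fit, with 3 of 3 at an unadjusted p under 0.05 (12.2% of all genes) and 2 of 3 called by DESeq2, Ly6c2 and Plac8 (1.38% of all genes). Ccr2, the chemokine receptor that brings monocytes out of the bone marrow, measured 170 and 332 CPM in WT against 429 and 408 CPM in the other group (log2 fold change 0.74, SE 0.29, edgeR adjusted p = 0.356). T and NK cell markers, led by Nkg7, summed to 93.9 and 67.1 CPM against 216 and 72.1 CPM, without a value for Trbc2, and neutrophil markers, led by Csf3r, to 182 and 222 CPM against 285 and 436 CPM. Of the 6 neutrophil markers 5 were tested, and 4 of these lay higher in both labelled Trim24-deficient libraries, beside 21.4% of all genes tested. The other, Cxcr2, overlapped between the groups (log2 fold change -0.30). None of the 5 was called in the edgeR fit, with 4 of 5 at an unadjusted p under 0.05 (12.2% of all genes). DESeq2 called 2 of 5, Csf3r and S100a9 (1.38% of all genes). Ly6g was not tested, with no value in WT and expected counts of 9.41 and 4.47 in the other group. The 7 melanoma markers summed to 813 and 773 CPM in WT against 611 and 804 CPM, with the lowest sum in the library where Gas6 was lowest. Of these, 4 (Mlana, Tyrp1, Dct and Mitf) were lower in both labelled Trim24-deficient libraries, beside 23.0% of all genes tested, and none was called in the edgeR fit, with 1 of 7 at an unadjusted p under 0.05 and 0 called by DESeq2. The part of these cells in the Gas6 values was not tested, and in sorted bulk samples fewer cells of a type and less RNA per cell cannot be told apart.

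Mfge8 (Entrez gene 17304), the bridge to integrins, followed Gas6 across the libraries labelled Trim24-deficient at a much lower level. It lies on the minus strand of chromosome 7 from 79133768 to 79149060 with 10 exons. It measured 11.1 and 14.4 CPM in WT against 3.83 and 15.8 CPM in the labelled Trim24-deficient libraries, so the latter held both the lowest and the highest value. The log2 fold change was -0.37 (SE 0.53, edgeR adjusted p = 0.824). Its sign turned, at 0.32, once the library labelled Trim24-deficient replicate 1 was left out (edgeR adjusted p = 0.675), and the change was -1.72 without replicate 2 (edgeR adjusted p = 0.0315). The gap of -1.93 within the labelled Trim24-deficient group on the log2 CPM scale was reached by 1.11% of genes. The ratio of Gas6 to Mfge8 in FPKM was 30.0 and 32.5 in the WT libraries and 18.5 and 20.1 in the labelled Trim24-deficient libraries (exact two-sided permutation test, p = 0.333).

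**Figure D3:**
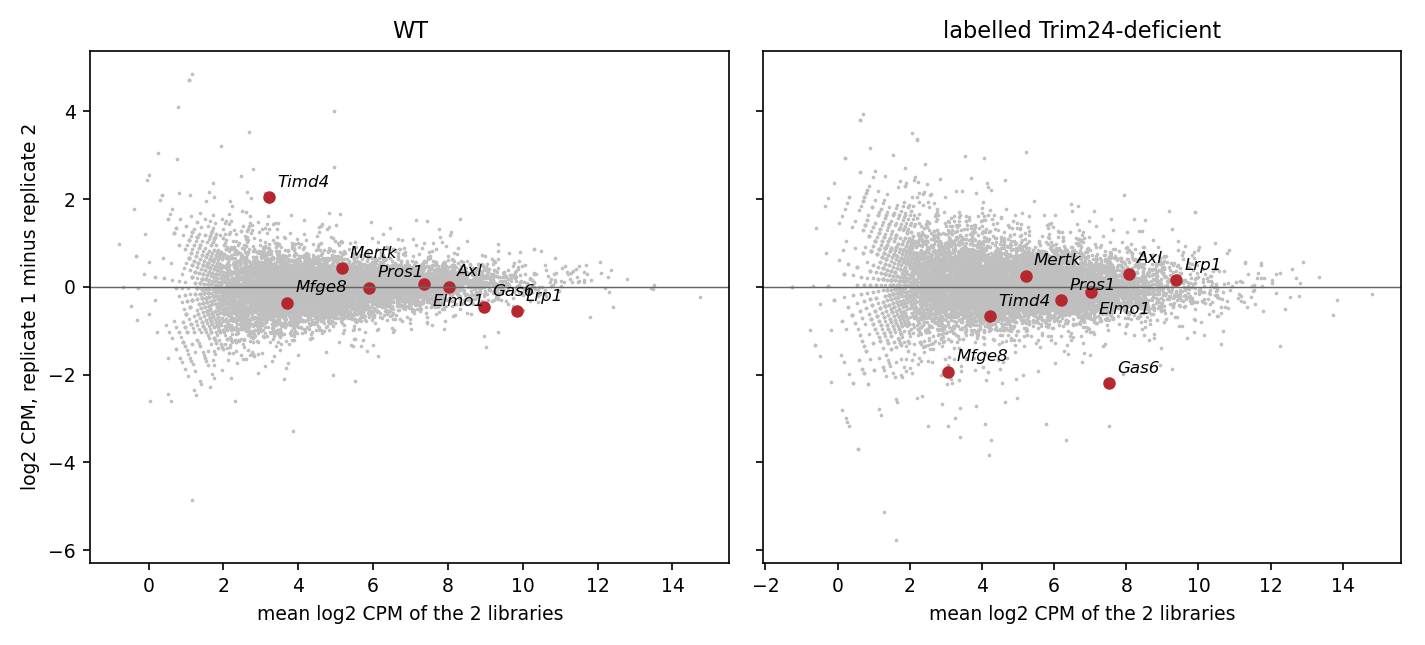
Difference in log2 CPM between replicate 1 and replicate 2 (vertical axis) against the mean log2 CPM of the 2 libraries (horizontal axis), for WT (left) and labelled Trim24-deficient (right); grey points are all genes tested and red points the 8 tested uptake genes. Gas6 at -2.19 and Mfge8 at -1.93 stood at the lower edge in the labelled Trim24-deficient group, and Timd4 at 2.04 lay high in the WT group.

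Pros1 (Entrez gene 19128), which encodes protein S, an anticoagulant and a ligand of Mertk and Tyro3, did not share this pattern. It lies on the plus strand of chromosome 16 from 62854307 to 62929346 with 15 exons. It measured 58.4 and 59.2 CPM in WT against 65.6 and 81.2 CPM in the labelled Trim24-deficient libraries. Both of the latter were above both WT libraries in CPM, whereas in FPKM the groups overlapped, at 17.92 and 18.97 against 18.71 and 22.81, and the log2 fold change was 0.32 (SE 0.19, 95% interval -0.12 to 0.76, edgeR adjusted p = 0.539). It was 0.16 without the library labelled Trim24-deficient replicate 2, 0.17 with library totals and 0.16 with limma at either pseudocount. Per length, Gas6 exceeded Pros1 by 9.36-fold and 12.7-fold in the WT libraries, by 1.68-fold in the library labelled Trim24-deficient replicate 1 and by 6.21-fold in replicate 2. Gas6 thus remained the more abundant of the kinase ligands in all 4 libraries. The ratio of Gas6 to its receptor Axl in FPKM was 3.19 and 4.34 in the WT libraries and 0.56 and 3.18 in the labelled Trim24-deficient libraries, and only in the library labelled Trim24-deficient replicate 1 was the ligand below the receptor.

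Timd4 and Stab2, the phosphatidylserine receptors among the 10 genes, were scarce. Stab1 and Cd300lf, uptake receptors of the wider list described below, were more abundant. Timd4 (Entrez gene 276891), a tethering receptor typical of resident macrophages, lies on the plus strand of chromosome 11 from 46810786 to 46844333 with 9 exons. It measured 18.4 and 4.17 CPM in WT against 14.3 and 23.0 CPM in the labelled Trim24-deficient libraries. The groups overlapped, and the low value was that of WT replicate 2, from 20 expected counts against 91 in WT replicate 1. That gap was 2.04 on the log2 CPM scale, and 0.354% of genes had as large a gap between the WT libraries. The log2 fold change was 0.72 (SE 0.54, edgeR adjusted p = 0.626), and it ranged from 0.02 without WT replicate 2 to 2.17 without WT replicate 1 (edgeR adjusted p = 0.0876). Stab2 (Entrez gene 192188), a scavenger receptor best known from liver sinusoidal endothelium, lies on the minus strand of chromosome 10 from 86841194 to 87008038 and did not pass the filter. It had expected counts of 1 and 5 in the WT libraries and of 6 and 1 in the labelled Trim24-deficient libraries, so no fold change is given.

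The engulfment genes Lrp1 and Elmo1 were lower in both libraries labelled Trim24-deficient than in either WT library. Of all genes tested, 23.0% were lower without overlap, and the change of neither gene passed the test. Lrp1 (Entrez gene 16971), a large endocytic receptor that takes up calreticulin-marked cells, lies on the minus strand of chromosome 10 from 127538157 to 127621148 with 89 exons. It measured 764 and 1126 CPM in WT against 699 and 630 CPM in the labelled Trim24-deficient libraries. The lower WT library was close to the other group, and WT replicate 2 stood highest. The log2 fold change was -0.51 (SE 0.24, 95% interval -1.05 to 0.04, edgeR adjusted p = 0.43), and it was -0.20 without WT replicate 2.

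Elmo1 (Entrez gene 140580), which activates Rac together with Dock proteins, lies on the plus strand of chromosome 13 from 20090507 to 20608353 with 22 exons. It measured 169 and 160 CPM in WT against 124 and 134 CPM in the labelled Trim24-deficient libraries. The libraries of a label lay close together, with means of 165 ± 6.07 and 129 ± 6.79 CPM (SD, n = 2 each). The log2 fold change was -0.36 (SE 0.18, 95% interval -0.76 to 0.05, edgeR adjusted p = 0.457), and without each library in turn it stayed between -0.41 and -0.30. An antisense gene without a value of its own in these libraries, Gm32036, overlaps an exon of Elmo1, and the sources do not state whether reads were counted by strand.

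**Figure D4:**
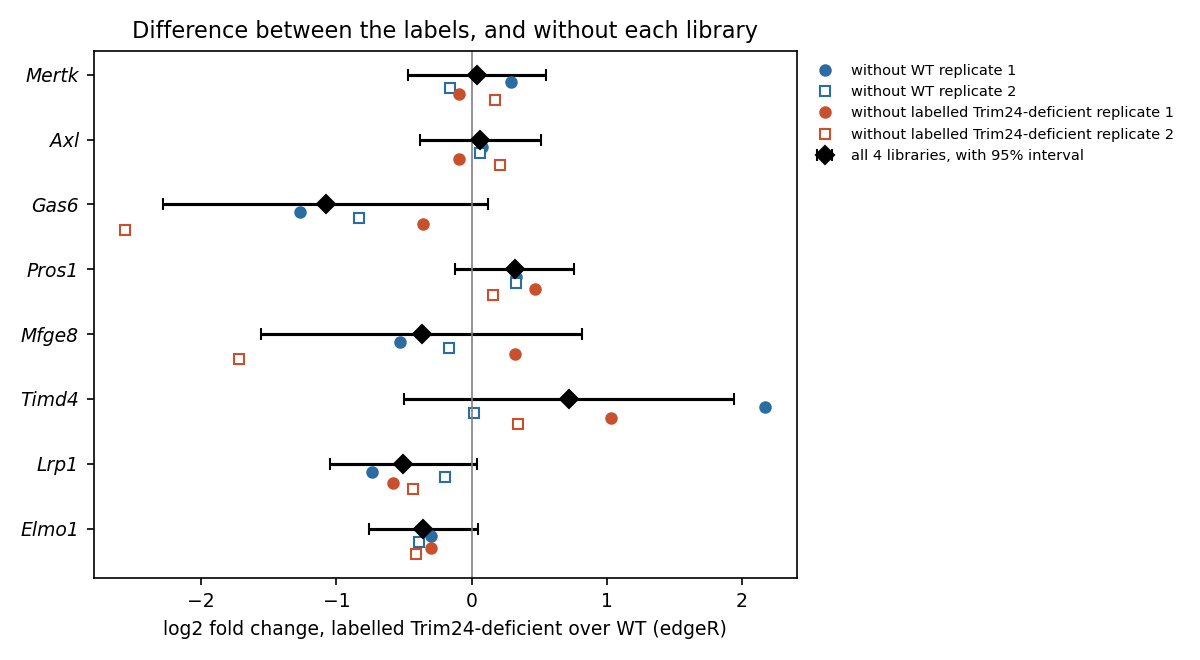
Log2 fold change of the 8 tested genes, labelled Trim24-deficient over WT, from edgeR; diamonds with 95% intervals use all 4 libraries and the other symbols leave out the library named. Every interval includes 0, and Gas6 moved from -0.36 to -2.56 depending on which library labelled Trim24-deficient was left out.

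In the WT libraries, the order of mean levels per length was Gas6 (204 ± 51.5 FPKM), Lrp1 (65.6 ± 19.7), Axl (54.0 ± 2.0), Elmo1 (30.6 ± 0.198), Pros1 (18.4 ± 0.742), Mertk (10.4 ± 1.86), Mfge8 (6.50 ± 1.28), Timd4 (5.35 ± 4.67), Tyro3 (0.15 ± 0.141) and Stab2 (0.08 ± 0.0707), each in FPKM with the SD of 2 libraries. The libraries of neighbours overlapped for Lrp1 and Axl, for Mfge8 and Timd4, and for Tyro3 and Stab2, so these pairs were not separated by their spread. In the libraries labelled Trim24-deficient Gas6 still had the highest mean (86.5 ± 77.9 FPKM) but overlapped Axl (50.3 ± 8.08), which was above Lrp1 (41.5 ± 3.51). Elmo1 (21.6 ± 0.891) and Pros1 (20.8 ± 2.90) overlapped there. Among all genes with a value, Gas6 stood between the 84.5 and the 97.8 percentile of FPKM over the libraries, Axl between 87.9 and 90.4, and Mertk between 63.3 and 68.8.

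The study asks how Trim24 acts on genes bound by Stat6, and the start-site regions of the 4 genes whose groups did not overlap are shown for that reason, 250 bases before and 50 after the RefSeq start on GRCm38.p6, 5′ to 3′ on the strand of the gene. Promoter sequences matched all 10 genes, with 2 start sites for Elmo1. Capitals mark matches, on either strand, to TTC and GAA with 4 bases of any kind between them (the spacing preferred by Stat6), to TTCNNNGAA (the spacing of other STAT proteins) or to GAGGAAGT (the core bound by the macrophage factor PU.1). Pros1 held TTCTAAAGAA, starting 222 bases upstream of the start site, and TTCCAGGAA 92 bases upstream. Lrp1 held TTCCCAGAA 232 bases upstream, and the downstream Elmo1 start held TTCCCAGAA and TTCCCTGAA at 74 and 23 bases upstream. The upstream Elmo1 start held GAGGAAGT 38 bases after the start.
Gas6, chr8:13494486-13494785, minus strand: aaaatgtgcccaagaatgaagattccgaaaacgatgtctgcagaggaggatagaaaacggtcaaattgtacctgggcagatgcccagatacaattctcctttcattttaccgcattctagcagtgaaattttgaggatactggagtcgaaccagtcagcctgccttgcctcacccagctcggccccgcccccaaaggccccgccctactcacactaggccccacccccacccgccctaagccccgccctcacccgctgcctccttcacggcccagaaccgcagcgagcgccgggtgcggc
Lrp1, chr10:127621099-127621398, minus strand: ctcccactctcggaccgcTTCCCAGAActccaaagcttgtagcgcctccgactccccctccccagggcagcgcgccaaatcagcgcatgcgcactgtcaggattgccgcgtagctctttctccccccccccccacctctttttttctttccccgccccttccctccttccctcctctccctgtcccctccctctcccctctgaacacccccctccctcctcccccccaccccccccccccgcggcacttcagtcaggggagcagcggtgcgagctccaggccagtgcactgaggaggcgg
Pros1, chr16:62854057-62854356, plus strand: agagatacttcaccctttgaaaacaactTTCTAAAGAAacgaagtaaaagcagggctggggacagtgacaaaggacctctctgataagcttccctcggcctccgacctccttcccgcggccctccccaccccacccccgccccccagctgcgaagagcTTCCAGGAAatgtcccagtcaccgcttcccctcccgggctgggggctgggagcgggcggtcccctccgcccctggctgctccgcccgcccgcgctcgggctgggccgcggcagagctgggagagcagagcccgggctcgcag
Elmo1, chr13:20090257-20090556, plus strand: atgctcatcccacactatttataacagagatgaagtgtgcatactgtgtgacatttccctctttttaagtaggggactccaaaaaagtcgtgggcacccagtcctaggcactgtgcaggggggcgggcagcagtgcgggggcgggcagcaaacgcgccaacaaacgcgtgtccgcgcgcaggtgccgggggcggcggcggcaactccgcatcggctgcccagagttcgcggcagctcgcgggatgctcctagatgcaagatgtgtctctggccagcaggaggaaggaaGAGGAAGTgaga
Elmo1, chr13:20472740-20473039, plus strand: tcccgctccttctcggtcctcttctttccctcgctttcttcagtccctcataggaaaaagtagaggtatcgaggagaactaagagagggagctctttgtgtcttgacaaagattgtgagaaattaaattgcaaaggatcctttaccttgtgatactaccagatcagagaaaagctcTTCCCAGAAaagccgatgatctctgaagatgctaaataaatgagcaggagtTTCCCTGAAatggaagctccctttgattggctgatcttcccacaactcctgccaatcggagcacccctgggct

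The wider STAT spacing, with 4 bases between TTC and GAA, was found in 1 of the 11 promoters of the 10 genes and in 6.95% of 32851 mouse promoters of the same length. TTCNNNGAA was found in 3 of the 11 and in 8.30% of all, and GAGGAAGT in 1 of the 11 and in 3.20% of all. These are matches of letters and not sites of binding, and the Gas6 promoter held none of the patterns searched.

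The wider machinery of apoptotic cell uptake was described by 62 other genes in 7 groups by role, of which 60 had a value and 57 were tested. None was called in the edgeR fit, with 11 of 57 at an unadjusted p under 0.05 (5 higher and 6 lower with the Trim24-deficient label), against 12.2% of all genes. DESeq2 called 2 (Thbs1 and Cd300lf, both higher), beside 1.38% of all genes, and limma called 0. The median log2 fold change of the 57 was 0.05, with 10 genes higher and 13 lower without overlap of the groups, beside 21.4% and 23.0% of all genes. Leaving out a library changed the count, to 1 without WT replicate 1 (0.563% of all genes), 5 without the library labelled Trim24-deficient replicate 1 (3.46%) and 11 without replicate 2 of that label (5.54%).

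Of the 14 other uptake receptors, 10 were tested. Stab1, the relative of Stab2 that macrophages express, measured 858 and 1228 CPM in WT against 426 and 712 CPM in the labelled Trim24-deficient libraries (log2 fold change -0.87, SE 0.29, edgeR adjusted p = 0.266). Trem2, a lipid receptor of phagocytes, was at 427 and 531 CPM against 251 and 407 CPM (log2 fold change -0.54, edgeR adjusted p = 0.433). Both were lowest in the library labelled Trim24-deficient replicate 1, as Gas6 was, but by a smaller gap. On the log2 CPM scale, replicate 1 minus replicate 2 of that label was -0.74 for Stab1 and -0.70 for Trem2. As large a gap was found in 14.6% and 16.3% of genes tested, beside 0.681% for Gas6. Cd300lf, an inhibitory and uptake receptor for phosphatidylserine, had the largest change of the group at 140 and 77.1 CPM against 264 and 207 CPM (log2 fold change 1.12, edgeR adjusted p = 0.168 and 0.0189 from DESeq2). The kidney-injury receptor Havcr1 had no value in any library.

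Of the 7 other bridging molecules, 6 were tested, and Ptx3 had no value in any library. The complement subunits C1qb and C1qc, which mark apoptotic cells, were the most abundant genes of the wider list, at 4580 to 6476 CPM and 3348 to 3837 CPM over the 4 libraries, with log2 fold changes of 0.27 (edgeR adjusted p = 0.694) and -0.01 (edgeR adjusted p = 0.989). Thbs1, thrombospondin 1, which joins dying cells to Cd36 and integrins, measured 36.1 and 20.8 CPM in WT against 59.0 and 118 CPM in the labelled Trim24-deficient libraries. Its log2 fold change of 1.64 was the largest increase of the 57 genes (SE 0.35, edgeR adjusted p = 0.112 and 0.00205 from DESeq2).

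All 10 genes of engulfment signalling were tested. Rac1, the GTPase downstream of Elmo1, measured 884 and 729 CPM in WT against 921 and 517 CPM in the labelled Trim24-deficient libraries, and Rhog, which acts upstream of Elmo1, was at 308 and 240 against 328 and 212 CPM, so the groups overlapped in both. Gulp1, an adaptor of Lrp1 and Stab2, had the largest change of the group (log2 fold change -1.77, SE 0.73, edgeR adjusted p = 0.374) at levels of 3.03 and 2.08 against 1.06 and 0.411 CPM, close to the floor.

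Among the 6 genes of attraction and inhibition of uptake, Sirpa, the receptor of the don't-eat-me signal, measured 1160 and 1253 CPM in WT against 1286 and 1126 CPM in the labelled Trim24-deficient libraries. Its ligand Cd47 was at 386 and 354 against 490 and 373 CPM, and both overlapped between the groups. S1pr1, a receptor for the find-me lipid sphingosine 1-phosphate, was lower at 9.89 and 21.0 against 1.92 and 5.96 CPM, without passing the test (log2 fold change -1.96, SE 0.54, edgeR adjusted p = 0.2).

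Corpse digestion showed the narrowest range, with all 11 genes tested and log2 fold changes from -0.11 to 0.48. Cybb, the oxidase subunit used in phagosomes that recruit autophagy proteins, marked the upper end at 711 and 746 CPM in the WT libraries against 1189 and 848 CPM (edgeR adjusted p = 0.433), and Rab7, which drives phagosome maturation, was at 599 and 617 against 598 and 697 CPM.

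Of the 8 genes of sterol efflux and nuclear receptors, Abcg1 measured 214 and 195 CPM in WT against 358 and 201 CPM in the labelled Trim24-deficient libraries, and Abca1 was at 96.7 and 137 against 92.7 and 75.2 CPM. Nr1h3, the oxysterol receptor LXRα that raises Mertk transcription in macrophages, was higher without passing the test at 37.0 and 24.6 against 89.7 and 48.5 CPM (log2 fold change 1.16, SE 0.31, edgeR adjusted p = 0.194), while Mertk itself was as given above. Among the 6 genes listed for shedding and control of receptor kinases, Socs1, an inhibitor of cytokine signalling induced by Axl, had the largest change. Socs1 measured 33.5 and 14.8 against 88.6 and 38.0 CPM (log2 fold change 1.39, SE 0.44, edgeR adjusted p = 0.239). Ifnar1, which pairs with Axl, was at 286 and 376 against 310 and 342 CPM. Twf1, from the same list, was at 385 and 439 against 333 and 514 CPM, and the groups overlapped for both. A link of Twf1 to Axl was not tested.

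**Figure D5:**
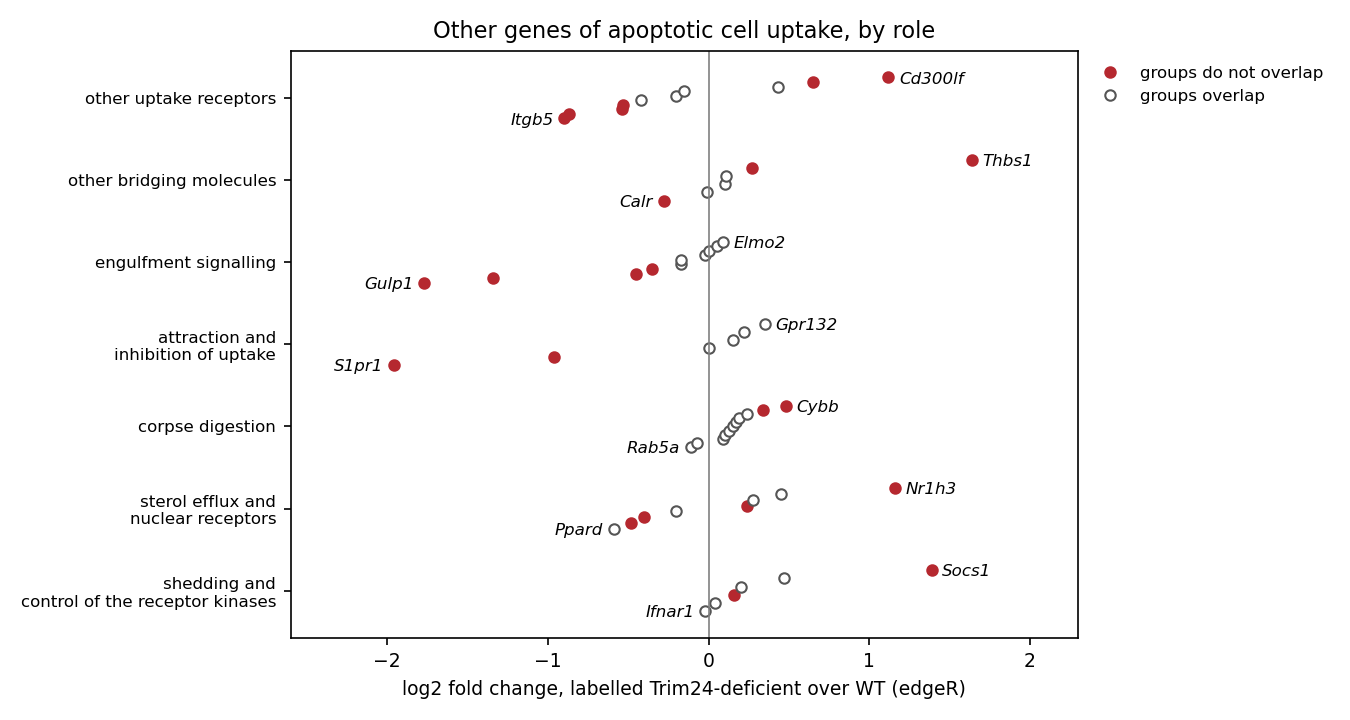
Log2 fold change of the 57 tested genes of the wider uptake machinery, labelled Trim24-deficient over WT (horizontal axis), in 7 rows by role; filled red points are genes whose groups do not overlap and open points those that do, and the lowest and highest gene of each row are named. The changes ran from -1.96 for S1pr1 to 1.64 for Thbs1, and none passed the test in this fit, which has no replicate block.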

How the data were processed

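RNA of sorted TAMs from B16-F10 tumors was sequenced in 4 libraries, grouped by their labels. Per the labels and the study's methods, Bowtie alignments to GRCm38/mm10 were summarized by RSEM (versions not given in the sources used here). The deposited expected count is raw and was rounded here. The deposited FPKM are scaled by the authors to length and library total. The tables list no zeros, so a gene missing from 1 library's table was set to 0 there and a gene missing from all has no value, and 16698 of 16739 identifiers matched a symbol. Genes were filtered (filterByExpr, 11302 left), scaled by TMM and tested with edgeR 4.0.16 (glmQLFit, glmQLFTest, R 4.3.3), standard errors being the change over the square root of F. Calls needed a fold change above 1.5 and FDR below 0.05. Alternatives were DESeq2 1.42.0 and, for FPKM on the log2 scale with a pseudocount of 1 or 0.1, limma 3.58.1. Limma used genes with FPKM of at least 1 in 2 libraries. Replicates were distinct libraries (chi-square per degree of freedom 8.57 in WT and 19.2 in the other group). The tests were checked on simulated counts. The members and gene lists were chosen with earlier results of these data known. Named genes were all members, any called gene of the wider list, and in each role group the 2 most abundant genes and the gene of largest change. Of the marker lists, the highest gene and genes without a value are named. Ly6g and further single markers of monocytes, neutrophils, melanoma cells and endothelium were named after their values were seen. A monocyte marker is not reported here and was left out of its list. Positions are from RefSeq (GRCm38.p6) and exon counts from GENCODE.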

Additional observations from a re-analysis of the deposited data

How the results depend on the processing

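No direction of Gas6, Pros1, Timd4, Lrp1 or Elmo1 changed in any alternative run, and none of the 8 genes was called apart from the cases given here. With 1 library left out, the called genes numbered 25 to 652, the uptake genes called 0 to 2 and the wider list 0 to 11. The log2 fold changes then ranged from -0.16 to 0.29 for Mertk, -0.09 to 0.21 for Axl, -2.56 to -0.36 for Gas6 and -1.72 to 0.32 for Mfge8. Over all genes, 42 were called in the reported fit, 156 with DESeq2, 23 and 20 with limma on log2(FPKM + 1) and log2(FPKM + 0.1), and 634 in the replicate block fit. This block, with 5.61% of all genes called, called 1 of the 8 genes, Gas6, at -1.42 (adjusted p = 1.76e-08 from edgeR). It also called 9 of the 57 tested genes of the wider list (Thbs1, Cd300lf, Scarf1, Nr1h3 and Socs1 higher, S1pr1, Stab1, Itgb5 and Cx3cr1 lower). DESeq2, with 1.38% of all genes called, called 2 of the 57. The labels do not say that equal numbers mark paired mice. Deviations from the group means correlated at 0.165 across genes between samples of the same number, and with 2 pairs this is no check of pairing. The sign of Mertk turned, to -0.10 with library totals, -0.01 with upper-quartile scaling and -0.09 with limma at either pseudocount, and that of Axl turned to -0.08 with library totals and -0.11 with limma at either pseudocount. The difference in the Mertk share of the receptor kinases was 0.0656 percentage points per length and -0.101 in expected counts. The causes were not tested. Tyro3 and Stab2, with 1 to 6 expected counts per library, did not pass the filter, and no fold change is given for either.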

Other observations

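Genes that shared the Gas6 pattern were sought after its values had been seen, as those at least 1.5 lower on the log2 CPM scale in the library labelled Trim24-deficient replicate 1 than in each of the other 3 libraries. They numbered 49, and Gas6 had the highest mean CPM of them. Apart from Gas6 and Fcrls, the genes named below were picked after their values were seen and do not stand for all 49. The same rule found 6 genes low in WT replicate 1 alone, 25 in WT replicate 2, among them Timd4, and 35 in the library labelled Trim24-deficient replicate 2. Next by mean level came Fcrls, an Fc receptor-like gene of resident macrophages, with CPM of 339 (WT replicate 1), 735 (WT replicate 2), 23.4 (labelled Trim24-deficient replicate 1) and 268 (replicate 2 of that label). Cbr2, a carbonyl reductase, was at 339, 354, 120 and 473 CPM in the same order, and Pmp22, a membrane protein of myelin, at 242, 259, 60.1 and 197 CPM. Lyve1, a hyaluronan receptor of perivascular macrophages and lymphatic vessels, was at 29.9, 20.8, 5.32 and 49.3 CPM. The hemoglobin transcripts Hba-a1 (39.8, 119, 4.47 and 68.8 CPM) and Hbb-bs (31.3, 80.6, 3.62 and 27.1 CPM), which belong to red cells, were among the 49 as well. Timd4, also typical of resident macrophages, was not among them, at 18.4, 4.17, 14.3 and 23.0 CPM in the same order.

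In the opposite direction, 21 genes (against 0 in WT replicate 1, 10 in WT replicate 2 and 9 in the library labelled Trim24-deficient replicate 2) were at least 1.5 higher on the log2 CPM scale in the library labelled Trim24-deficient replicate 1 than in each of the other 3. The most abundant was Gbp2b, an interferon-induced GTPase, at 79.2, 11.7, 501 and 118 CPM in the same order. Ciita, the activator of MHC class II genes, was at 21.0, 20.0, 91.6 and 29.4 CPM, and the lymphocyte genes Ifng (7.88, 3.96, 39.8 and 7.40 CPM) and Prf1 (18.0, 6.25, 57.7 and 10.3 CPM) were among them. Ciita, Ifng and Prf1 were likewise picked after their values were seen and do not stand for all 21. Whether these values bear on those of Gas6 was not tested.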
